A study of Homo sapiens with 12 samples.

Results

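The comparison set melanoma cells after 24 h of trifluridine (TFT) against the same cells after 8 h of the drug. The arrays were chosen by their titles, which name the drug and the time, and they number 5 of the 12 arrays of the series: 2 for TFT at 24 h and 3 for TFT at 8 h. The cells were WM35, an established human melanoma line, and both times received the drug at the same dose, the concentration giving 75% inhibition in an earlier 72 h test. TFT, also called trifluorothymidine, is a thymidine analog. The other arrays held cells given lactimidomycin (LTM), an inhibitor of translation elongation, for 24 h (2 arrays) or 8 h (3 arrays) at its own 75% inhibitory concentration, and cells given the DMSO vehicle (2 arrays, with no time in their titles). The series was made to derive drug signatures in this line for use with expression data of melanoma patients. The labels do not say that replicates came from separate cultures, so each p-value here measures the spread between these arrays, which may be technical.

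Thymidine analogs such as TFT are phosphorylated by thymidine kinase and built into DNA, and the monophosphate inhibits thymidylate synthase, the enzyme that makes the thymidine nucleotide of DNA. Damaged or stalled DNA stabilises p53, a transcription factor whose targets stop the cell cycle, repair DNA or promote cell death. Genes of mitosis are transcribed late in the cycle and are low early in it, in part through the DREAM complex and its relatives at CHR elements. Their promoters often hold CCAAT boxes as well.

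The deposited signals covered 47230 probes per array, of which 19668 to 20197 were detected (detection p under 0.05) on the TFT arrays, with mean signals of 332 to 411. After background correction and quantile normalization, 24325 probes were kept because at least 2 arrays detected them, and these gave 12131 named genes. Levels below are log2 intensities of 1 probe per gene and are not comparable between genes. Precision is limited by how few arrays there were. Of 10 melanoma cell markers, 5 passed the filter (MITF, PMEL, SOX10, ERBB3 and EDNRB), while MLANA, TYR, TYRP1 and S100B were undetected on all 5 TFT arrays. SOX10, the neural crest and melanocyte factor, was 11.32 and 11.24 on the TFT 24 h arrays, against 11.38, 11.45 and 11.28 on the TFT 8 h arrays. MITF, the melanocyte master regulator, was 5.76 and 6.07 at 24 h, against 5.42, 6.18 and 6.34 at 8 h. Neither gene passed the test between the times as labelled (log2 fold change -0.09, SE 0.15, and -0.06, SE 0.27; limma adjusted p = 0.949 and 0.981). The summed intensity of the melanoma markers was 4012 and 4065 at 24 h, against 3291 to 4294 at 8 h and 4538 to 4832 with vehicle.

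Some arrays stood apart from their label before any comparison was made. Correlations were taken across the 12131 genes on levels from which each gene's mean had been subtracted. The 2 arrays labelled TFT 24 h reached 0.48 with each other, while replicate 1 of that pair reached 0.74 with either of the first 2 TFT 8 h arrays. The third TFT 8 h array gave -0.53 and -0.52 against replicates 1 and 2 of its own group, and 0.80 and 0.77 against the last 2 LTM 8 h arrays. Among the TFT and LTM 8 h arrays, TFT 24 h replicate 2 correlated best with LTM 8 h replicate 1 (0.82). TFT 8 h replicates 1 and 2 correlated at 0.76 with each other. These are descriptions across genes, which are not independent replicates, and subtracting a mean over shared arrays shifts all of them. The arrays are used under their labels first. The comparison is then given again with TFT 24 h replicate 2 against TFT 8 h replicates 1 and 2, in a fit that also leaves out LTM 8 h replicate 1. The 24 h group of that fit is 1 array, assumed to vary like the other groups, and its p-values do not allow for the choice of arrays.

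With the arrays as labelled, no gene passed an adjusted p of 0.05 (0%; limma on all 12 arrays, 7 residual degrees of freedom), and the smallest adjusted p was 0.947. Unadjusted p-values under 0.05 numbered 281, or 2.32% of genes, where chance alone would give about 607, and limma with a trended prior and robust variances also called 0. The 24 h and 8 h arrays did not overlap for 2094 genes (17.3%), of which 1283 were higher on both 24 h arrays (10.6%) and 811 were lower (6.69%). The median log2 fold change over all genes was 0.01 and the median SE was 0.20. GDF15, a secreted stress cytokine and p53 target, was 5.56 and 8.34 on TFT 24 h replicates 1 and 2, against 5.31, 5.47 and 5.06 on the TFT 8 h arrays and 5.18 and 5.44 with vehicle. One 24 h array lay well above every TFT 8 h and vehicle array and the other lay just above them, which gave a log2 fold change of 1.67 (SE 0.89, adjusted p = 0.947).

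The genes with the largest moderated t as labelled are given as values only, since none passed the test. On the higher side, NBEAL2 was 6.18 and 6.16 at 24 h, against 5.49, 5.58 and 5.62 at 8 h (log2 fold change 0.61, SE 0.13), and vehicle arrays gave 6.13 and 6.34. USP2, a deubiquitinase, was 5.55 on both 24 h arrays, against 4.81, 4.87 and 5.00 at 8 h (0.66, SE 0.17). KIRREL1, a cell adhesion protein, had a difference of 0.61 (SE 0.17) and CAND2 one of 0.50 (SE 0.14). SIRT3, the mitochondrial deacetylase, was detected on both 24 h arrays and not well above background on any 8 h array, and was at least 1.09-fold higher at 24 h. On the lower side, WDR89 was 5.08 and 5.14 at 24 h, against 5.66, 5.84 and 6.14 at 8 h (log2 fold change -0.77, SE 0.16). The histone gene H3C7, one of a family of near-identical copies, was 4.98 and 5.17 at 24 h, against 5.67, 5.92 and 5.72 at 8 h (-0.69, SE 0.19). ARHGEF40 differed by -0.65 (SE 0.17). MRGPRG-AS1 and VPS13B were not well above background on either 24 h array and were at least 1.30-fold and 1.35-fold lower there. Such bounds set the bright arrays against the lowest detected signal of each dim array, or its own signal where that was higher. In each of these 10 genes both 24 h arrays lay on the same side of all 8 h arrays, and of the arrays labelled 8 h only 1 detected USP2.

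In TFT 24 h replicate 2 against TFT 8 h replicates 1 and 2, the transcripts that rose were led by GDF15 and included other p53 targets, the stress factor ATF3 and mitotic genes such as PLK1. Those that fell were led by the receptor kinase EPHB1 and the potassium channel KCNH1. Of 12131 genes, 190 passed (1.57%), with 140 higher (1.15%) and 50 lower (0.412%) at 24 h, by limma on 9 arrays with 4 residual degrees of freedom. Unadjusted, 2203 genes had a p under 0.05 (18.2%). The called changes ran in size between 0.65 and 2.95 on the log2 scale, and 91 of them were at least 1 (0.75%), 73 rises and 18 falls. The median over all genes was again 0.01, with a median SE of 0.17. In a culture measured as a whole, fewer cells with a transcript and less of it per cell cannot be told apart.

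The number of calls changed with the arrays in the fit. It was 16 without TFT 8 h replicate 1 and 24 without TFT 8 h replicate 2, and 106 without either vehicle array. It was 115 without LTM 8 h replicate 2 or 3, and 410 without either LTM 24 h array. With only the 3 TFT arrays in the fit no gene passed, while 2437 had an unadjusted p under 0.05. Among the rises, 18 genes were not well above background on TFT 8 h replicates 1 and 2, and among the falls 8 were not well above background on TFT 24 h replicate 2.

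**Figure D1:**
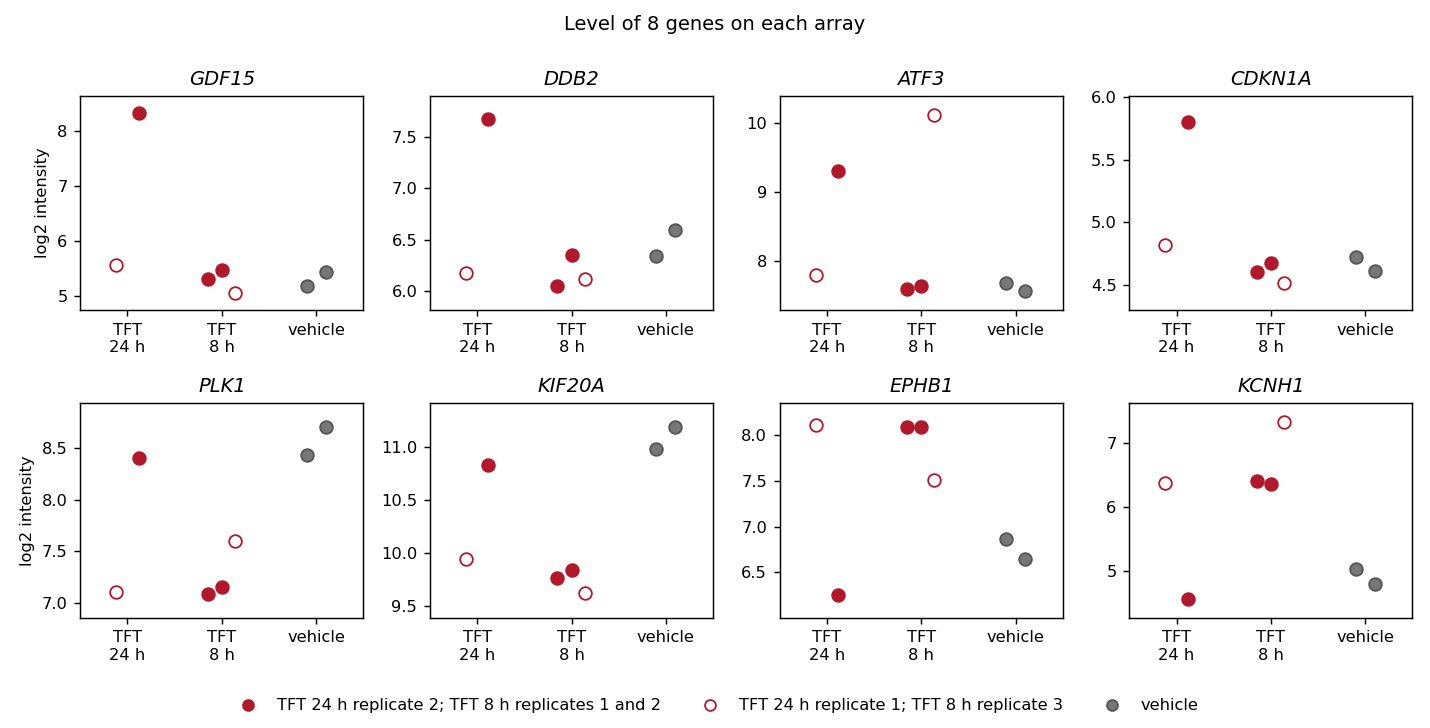
Log2 intensity (y axis) of 8 genes on each TFT 24 h, TFT 8 h and vehicle array, 1 point per array, with its own y range in each panel. Filled red points are TFT 24 h replicate 2 and TFT 8 h replicates 1 and 2, open red points are TFT 24 h replicate 1 and TFT 8 h replicate 3, and grey points are vehicle; in all 8 genes TFT 24 h replicate 1 lies beside TFT 8 h replicates 1 and 2.

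The plot of 8 genes by array shows the pattern that repeated over the called genes. For 185 of the 190 genes TFT 24 h replicate 1 lay nearer to the mean of TFT 8 h replicates 1 and 2 than to TFT 24 h replicate 2. Its median distance above that 8 h mean was 0.11 over the 140 rises, and it was -0.02 over the 50 falls. TFT 8 h replicate 3 was nearer to TFT 24 h replicate 2 for 59 genes and nearer to the other 8 h arrays for 131, with medians of -0.03 over the rises and -0.36 over the falls. LTM 8 h replicate 1, a library labelled with the other drug, was nearer to TFT 24 h replicate 2 for 175 of the 190, with medians of 0.92 and -0.84. GDF15 reached 8.17 on that array, against 8.34 on TFT 24 h replicate 2. The genes were chosen by the difference of the 3 TFT arrays, so these positions describe the other arrays and test nothing.

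**Figure D2:**
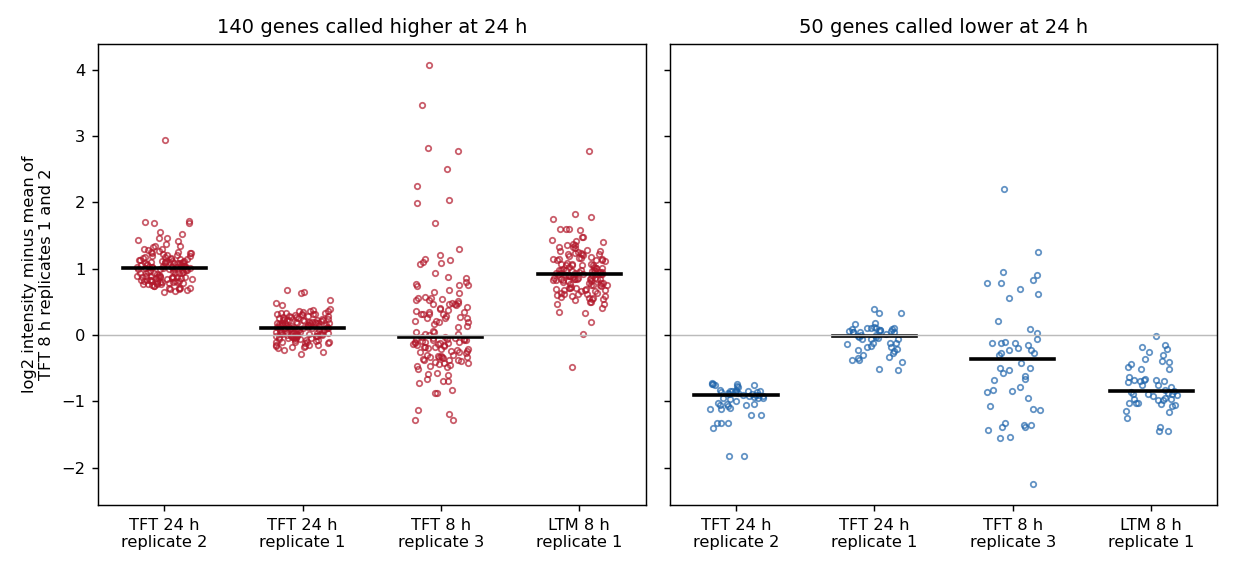
Log2 intensity minus the mean of TFT 8 h replicates 1 and 2 (y axis) for the 140 genes called higher at 24 h (left, red) and the 50 called lower (right, blue), 1 point per gene, with black bars at the median, on 4 arrays: replicates 2 and 1 of TFT 24 h, the third TFT 8 h array and the first LTM 8 h array. TFT 24 h replicate 1 stays near 0 (medians 0.11 and -0.02), TFT 8 h replicate 3 is widely spread, and LTM 8 h replicate 1 lies with TFT 24 h replicate 2 (medians 0.92 and -0.84).

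The p53 targets held the largest rise and the largest share of calls among the cell cycle and damage lists. Of 50 genes listed, 42 were tested, and 11 rose and 0 fell (26.2% rising, against 1.15% of all genes). Their median log2 fold change was 0.43, against 0.01 over all genes, and 37 of the 42 were above 0. With the arrays as labelled none of them passed and the median was 0.17. GDF15 had a log2 fold change of 2.95 (SE 0.18, adjusted p = 0.000337), from the levels given above. DDB2, which recognises damaged bases for nucleotide excision repair, was 7.67 on TFT 24 h replicate 2 and 6.18 on replicate 1, against 6.05, 6.35 and 6.12 on the TFT 8 h arrays and 6.34 and 6.60 with vehicle. The one high array stood apart from all the others, and the log2 fold change over TFT 8 h replicates 1 and 2 was 1.47 (SE 0.19, adjusted p = 0.0108).

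SESN2, a stress-induced inhibitor of the growth kinase mTORC1, was 6.75 on TFT 24 h replicate 2 and 5.50 on replicate 1, against 5.10, 5.47 and 6.41 at 8 h. TFT 8 h replicate 3 was the only 8 h array near the high 24 h array (log2 fold change 1.46, SE 0.24, adjusted p = 0.0222). CDKN1A encodes p21, the p53-induced inhibitor of cyclin-dependent kinases. It was 5.80 on TFT 24 h replicate 2 and 4.82 on replicate 1, against 4.60, 4.67 and 4.51 at 8 h and 4.72 and 4.61 with vehicle. Since TFT 8 h replicates 1 and 2 and both vehicle arrays did not detect CDKN1A, it was at least 1.82-fold higher on TFT 24 h replicate 2 than on those 8 h arrays (adjusted p = 0.0123). HES2, also not well above background at 8 h, was at least 1.87-fold higher (adjusted p = 0.0123).

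The other members that passed were named after their values were seen. They were TP53INP1 (log2 fold change 1.24, SE 0.17), a p53 cofactor in cell death, BLOC1S2 (1.15, SE 0.22), PHLDA3 (0.87, SE 0.15), an inhibitor of AKT, TP53I3 (0.83, SE 0.16), GADD45A (0.81, SE 0.15), a growth arrest and damage gene, and FUCA1 (0.68, SE 0.14), a lysosomal fucosidase. With the arrays as labelled GADD45A had the opposite sign (-0.57) and BLOC1S2 was at -0.02. Several classical p53 targets did not pass. MDM2, the ubiquitin ligase that degrades p53, was 6.06 on TFT 24 h replicate 2 and 5.36 on replicate 1, against 5.37, 5.25 and 6.23 at 8 h (0.75, SE 0.25, adjusted p = 0.154). FAS, the death receptor, was at 0.83 (SE 0.22, adjusted p = 0.0894) and RRM2B, the p53-induced ribonucleotide reductase subunit, at 0.69 (SE 0.26, adjusted p = 0.202). PMAIP1, which encodes the death protein NOXA, was at 0.20 (SE 0.16). The count of 11 was 2 without either TFT 8 h replicate 1 or TFT 8 h replicate 2, 6 without a vehicle array, 7 without LTM 8 h replicate 2 or 3, 7 in the authors' processed table and 0 with only the TFT arrays.

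**Figure D3:**
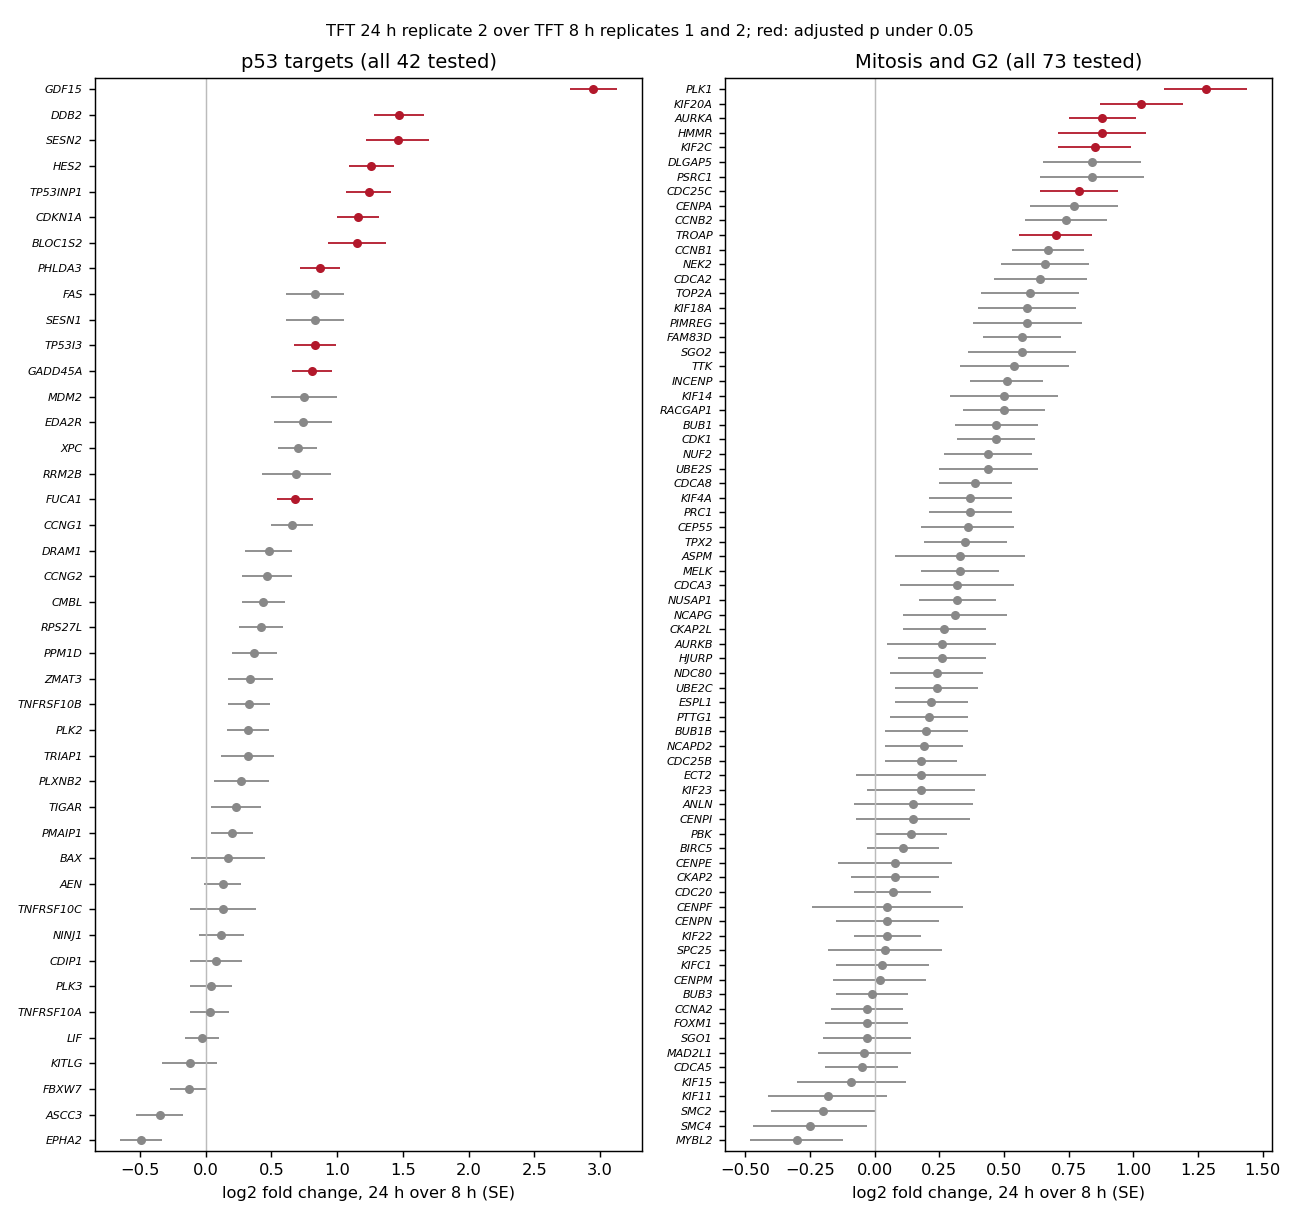
Log2 fold change of TFT 24 h replicate 2 over TFT 8 h replicates 1 and 2 (x axis, with the SE of the 9-array fit as bars) for all 42 tested p53 targets (left) and all 73 tested genes of mitosis and G2 (right), sorted by value, with a different x range in each panel. Red marks an adjusted p under 0.05. GDF15 lies at 2.95 and the other p53 targets at 1.47 or less, while the mitotic genes are led by PLK1 at 1.28 and KIF20A at 1.03.

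The genes of mitosis and G2 that rose were led by the kinases PLK1 and AURKA and the kinesin KIF20A. Of 81 genes listed, 73 were tested, and 7 rose and 0 fell (9.59% rising, against 1.15% of all genes), with a median of 0.31 and 62 of the 73 above 0. As labelled the median was 0.20 and none passed, while 18 members had both 24 h arrays above all 8 h arrays (10.6% of all genes did) and 1 had both below (6.69% of all genes). The count of 7 was 0 without TFT 8 h replicate 1, 1 without TFT 8 h replicate 2, 4 without a vehicle array or LTM 8 h replicate 2 or 3, 15 without either LTM 24 h array, 4 in the authors' processed table and 0 with only the TFT arrays.

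The promoters of PLK1, KIF20A and HMMR are shown because these genes were among the 4 mitotic genes that moved most and their promoters hold the elements of late cell cycle genes. Each runs 250 bases before to 50 bases after the RefSeq start on GRCh38.p14, on the plus strand, at chr16:23678639-23678938 for PLK1, chr5:138178862-138179161 for KIF20A and chr5:163460382-163460681 for HMMR. Capitals mark CHR elements (TTTGAA) and CCAAT boxes (CCAAT), searched on both strands.
PLK1: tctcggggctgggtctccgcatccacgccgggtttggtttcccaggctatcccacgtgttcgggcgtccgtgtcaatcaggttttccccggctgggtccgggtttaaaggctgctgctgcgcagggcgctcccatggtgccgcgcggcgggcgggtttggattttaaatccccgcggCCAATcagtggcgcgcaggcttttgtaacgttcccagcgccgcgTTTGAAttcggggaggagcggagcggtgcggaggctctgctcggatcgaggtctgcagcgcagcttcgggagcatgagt
KIF20A: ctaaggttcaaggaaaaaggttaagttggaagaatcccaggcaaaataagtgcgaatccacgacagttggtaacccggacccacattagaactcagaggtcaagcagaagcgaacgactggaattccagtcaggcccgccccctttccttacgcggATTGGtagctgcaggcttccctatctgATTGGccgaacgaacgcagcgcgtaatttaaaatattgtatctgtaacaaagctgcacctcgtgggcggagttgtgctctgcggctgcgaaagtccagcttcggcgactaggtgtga
HMMR: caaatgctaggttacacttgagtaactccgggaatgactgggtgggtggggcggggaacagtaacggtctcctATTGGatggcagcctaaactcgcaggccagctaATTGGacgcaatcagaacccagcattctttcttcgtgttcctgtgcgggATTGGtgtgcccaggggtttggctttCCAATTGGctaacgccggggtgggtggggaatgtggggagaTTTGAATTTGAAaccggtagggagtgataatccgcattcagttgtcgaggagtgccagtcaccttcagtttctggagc

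The PLK1 promoter held a CHR element starting 29 bases and a CCAAT box starting 73 bases before the start. That of KIF20A held CCAAT boxes at 94 and 67 bases before it and no CHR match, and that of HMMR held 2 CHR matches, at 28 and 22 bases, and 5 CCAAT boxes, of which the last 2 overlap on opposite strands. Promoters were in the RefSeq table for 59 of the 73 tested genes of the list, and 38 of these (64.4%) held a CHR match and 42 (71.2%) a CCAAT box. Over all 27305 promoters of the same length the shares were 15.4% and 35.7%, and over the 9681 promoters of tested genes 10.4% and 37.1%. Of the 5 risen mitotic genes with a promoter in the table, 2 held a CHR match (40.0%) and 3 a CCAAT box (60.0%), shares below those of the list. The promoters of CDC25C and KIF2C held neither, and the 3 promoters shown were picked partly for their matches. A p53 half-site, searched by its consensus on both strands, was found in 0 of 8 risen p53 targets and in 6.54% of all promoters. It was found in 5.48% of the promoters of tested genes and in 3 of 32 (9.38%) of those of the p53 list. Only these 300 bases were searched, and at such shares few matches would be met among 8 promoters, so the 0 decides nothing. A match is a description of letters, not of a bound site.

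PLK1, the kinase that drives mitotic entry and spindle assembly, was 8.40 on TFT 24 h replicate 2 and 7.11 on replicate 1, against 7.09, 7.16 and 7.60 at 8 h and 8.43 and 8.70 with vehicle. TFT 24 h replicate 2 thus lay near the vehicle arrays and the other 4 TFT arrays lay below them, and the log2 fold change was 1.28 (SE 0.16, adjusted p = 0.0108). KIF20A, a kinesin of cytokinesis, was 10.83 on TFT 24 h replicate 2 and 9.94 on replicate 1, against 9.77, 9.84 and 9.62 at 8 h and 10.98 and 11.18 with vehicle (1.03, SE 0.16, adjusted p = 0.0175). AURKA, the centrosomal kinase Aurora A, was 11.33 and 10.56 on replicates 2 and 1 at 24 h, against 10.45, 10.46 and 10.20 at 8 h and 11.30 and 11.33 with vehicle (0.88, SE 0.13, adjusted p = 0.0175). KIF20A and AURKA had both 24 h arrays above all 8 h arrays, and PLK1 did not. HMMR, a spindle-associated protein, was 10.13 and 9.37 at 24 h in the same order, against 9.32, 9.20 and 9.75 at 8 h (0.88, SE 0.17, adjusted p = 0.0427).

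KIF2C, a microtubule-depolymerising kinesin (0.85, SE 0.14), CDC25C, the phosphatase that activates CDK1 (0.79, SE 0.15), and TROAP (0.70, SE 0.14) also passed, and were named after their values were seen. CCNB1, the mitotic cyclin B1, was 8.95 on TFT 24 h replicate 2 and 8.54 on replicate 1, against 8.28, 8.27 and 7.69 at 8 h (0.67, SE 0.14, adjusted p = 0.0515), just outside the threshold. CDK1, its kinase partner, was at 0.47 (SE 0.15, adjusted p = 0.149).

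For genes of DNA synthesis, the process TFT acts on, the share called was near that of all genes (1.57% in either direction). None of the 38 tested genes of thymidine and deoxynucleotide synthesis passed, with a median of -0.07 against 0.01 over all genes. TYMS, thymidylate synthase, was 11.92 on TFT 24 h replicate 2 and 12.17 on replicate 1, against 12.03, 12.03 and 11.68 at 8 h (-0.11, SE 0.19, adjusted p = 0.83). The 24 h and 8 h arrays overlapped. TK1, the thymidine kinase that activates TFT, was at -0.11 (SE 0.18), DUT, which clears dUTP, at -0.18 (SE 0.14), RRM2, the S-phase ribonucleotide reductase subunit, at -0.46 (SE 0.15, adjusted p = 0.144), and TYMP, the phosphorylase that breaks down TFT, at 0.51 (SE 0.14, adjusted p = 0.102).

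Of 52 tested DNA replication genes, 0 rose and 1 fell, with a median of -0.14. The member that fell was CDC6, which loads the replicative helicase, at 5.47 on TFT 24 h replicate 2 and 6.58 on replicate 1, against 6.54, 6.52 and 6.0 at 8 h (-1.06, SE 0.17, adjusted p = 0.0197). PCNA, the sliding clamp, was at -0.21 (SE 0.18, adjusted p = 0.608). Among 30 tested G1/S genes, CDKN1A rose and CCND1, the cyclin D1 of early G1, fell to 12.26 on TFT 24 h replicate 2, with 13.15 on replicate 1, against 12.99, 13.08 and 12.74 at 8 h (-0.77, SE 0.14, adjusted p = 0.0272). CCNE1, cyclin E1, was at -0.52 (SE 0.15, adjusted p = 0.106) and E2F1 at -0.28 (SE 0.25). None of 56 tested checkpoint and repair genes (median -0.10) and none of 45 tested histone genes (median 0.07) passed; histone genes are near-identical copies whose probes may share signal. CHEK1, the checkpoint kinase, was at -0.05 (SE 0.13). Above 0 were 15 of 38 genes of thymidine and deoxynucleotide synthesis, 13 of 52 of replication and 15 of 56 of checkpoint and repair. So were 12 of the 30 G1/S genes, whose median was -0.08. These lists thus leaned below 0, against a median of 0.01 over all genes.

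**Figure D4:**
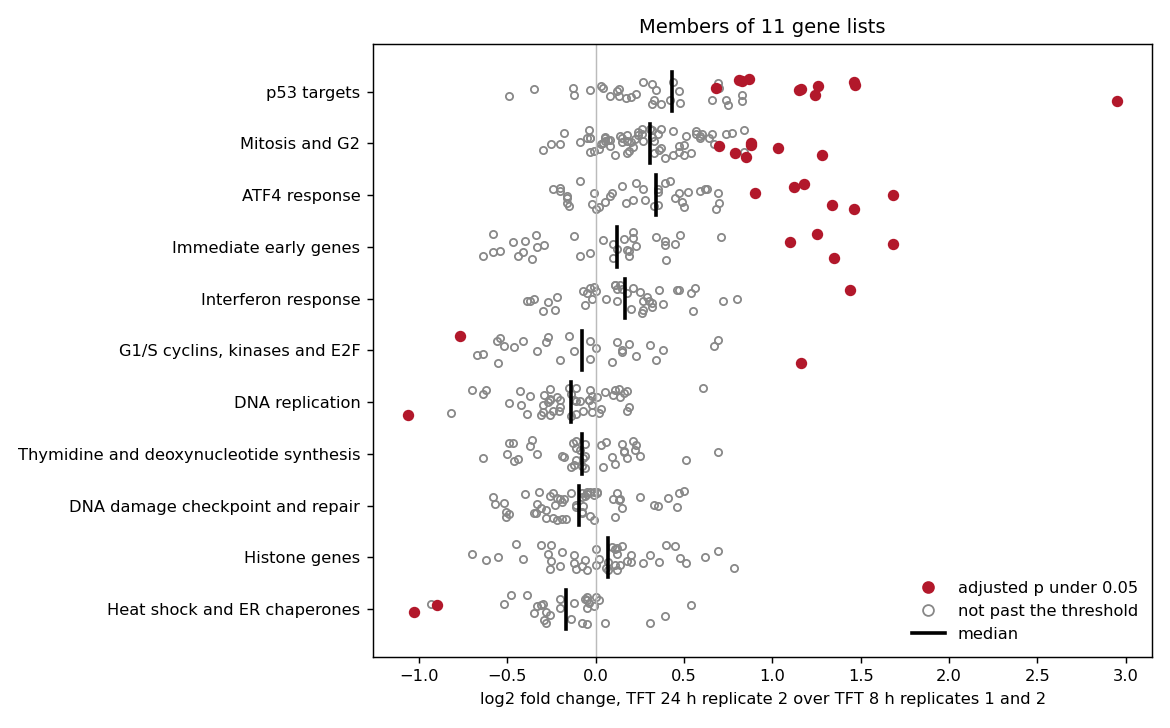
Log2 fold change of TFT 24 h replicate 2 over TFT 8 h replicates 1 and 2 (x axis) for the tested members of 11 gene lists (rows), 1 point per gene, with filled red points at an adjusted p under 0.05 and black bars at the median of each list. Several red points lie to the right in the p53, mitosis, ATF4 and immediate early lists, whose medians are 0.43, 0.31, 0.34 and 0.12, and the medians of the DNA synthesis and repair lists lie between -0.14 and -0.07.

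Targets of ATF4, the transcription factor of the integrated stress response, rose for 6 of 44 tested members and fell for 0 (13.6% rising, against 1.15% of all genes, with a median of 0.34). The risen members were ATF3 and DDIT3 (CHOP), both stress transcription factors, SESN2, the cysteine synthesis enzyme CTH, and the amino acid transporters SLC1A4 and SLC6A9 (0.90, SE 0.15). ATF3 was 9.30 on TFT 24 h replicate 2 and 7.79 on replicate 1, against 7.59, 7.64 and 10.12 at 8 h and 7.68 and 7.56 with vehicle. The highest of the 5 arrays was thus labelled 8 h, so the log2 fold change was 1.68 (SE 0.16, adjusted p = 0.00584) over TFT 8 h replicates 1 and 2 and 0.09 (SE 0.67) as labelled. DDIT3 was 9.34 and 8.11 on replicates 2 and 1 at 24 h, against 8.27, 8.17 and 10.47 at 8 h, and its sign differed between the comparisons, with 1.12 (SE 0.17, adjusted p = 0.0181) over TFT 8 h replicates 1 and 2 and -0.24 (SE 0.60) as labelled.

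CTH was 7.64 and 6.76 at 24 h in the same order, against 6.57, 6.04 and 8.34 at 8 h (1.34, SE 0.20, adjusted p = 0.0175). SLC1A4 was 6.66 and 6.01, against 5.34, 5.61 and 6.0 (1.18, SE 0.19, adjusted p = 0.0221). Of ATF3, DDIT3, CTH and SLC1A4, only SLC1A4 had both 24 h arrays above all 3 arrays labelled 8 h. With the arrays as labelled the median of the ATF4 list was 0.09. The count of 6 was 2 without TFT 8 h replicate 1, 1 without TFT 8 h replicate 2, 10 without either LTM 24 h array and 0 with only the TFT arrays.

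Immediate early genes, which respond within minutes to growth factors and stress, rose for 4 of 37 tested members and fell for 0 (10.8% rising, against 1.15% of all genes, with a median of 0.12), and the median as labelled was -0.34. ATF3 is in this list too. FOS, a subunit of the AP-1 transcription factor, was 7.54 on TFT 24 h replicate 2 and 6.48 on replicate 1, against 6.22, 6.37 and 10.37 at 8 h. It rose by 1.25 (SE 0.17, adjusted p = 0.0123) over TFT 8 h replicates 1 and 2 and was at -0.64 (SE 1.17) as labelled. PTGS2, the inducible cyclooxygenase, was 7.46 and 6.10 at 24 h, against 6.32, 5.90 and 5.96 at 8 h (1.35, SE 0.23, adjusted p = 0.0241). GEM, a small GTP-binding protein, was 7.06 and 5.79, against 6.17, 5.75 and 6.0 (1.10, SE 0.19, adjusted p = 0.0283). Only TFT 24 h replicate 2 was high for PTGS2 and GEM, while FOS was highest on TFT 8 h replicate 3. EGR1 was at 0.71 (SE 0.23, adjusted p = 0.143) and MYC at -0.41 (SE 0.17, adjusted p = 0.239), both highest on TFT 8 h replicate 3 (11.96 and 11.22). The count of 4 was 1 without TFT 8 h replicate 1, 2 without TFT 8 h replicate 2 and 0 with only the TFT arrays.

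Among the cytokine and interferon genes, IL24, a cytokine of the IL-10 family, was 8.56 on TFT 24 h replicate 2 and 7.16 on replicate 1, against 7.09, 7.18 and 10.60 at 8 h (1.43, SE 0.18, adjusted p = 0.0108; -0.43 as labelled). The next largest rise among the 24 tested NF-kB and cytokine genes was that of IL1B (0.94, SE 0.24). Of the 24 genes 13 were above 0, and the median of the list was 0.04, against 0.01 over all genes. IFIT1, an interferon-induced protein that binds foreign RNA, was 7.21 and 5.93 on replicates 2 and 1 at 24 h, against 5.55, 6.0 and 4.94 at 8 h and 6.67 and 6.82 with vehicle (1.44, SE 0.21, adjusted p = 0.0156). Next to it among the 42 tested interferon genes came IFITM1 (0.80, SE 0.18). Of the 42 genes 29 were above 0, and the median of that list was 0.17, against 0.01 over all genes.

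The remaining leading rises belonged to none of the lists. LRRC17, a secreted leucine-rich repeat protein, was 7.70 on TFT 24 h replicate 2 and 6.28 on replicate 1, against 5.94, 6.01 and 4.85 at 8 h (1.73, SE 0.18, adjusted p = 0.00722). ELAPOR1, a transmembrane protein of endosomes and lysosomes, was 8.28 and 6.81, against 6.45, 6.71 and 7.46 (1.70, SE 0.18). CABYR, a calcium-binding protein first described in sperm, was 7.83 and 6.49, against 5.97, 6.32 and 6.35 (1.68, SE 0.17). LRRC17 and CABYR had both 24 h arrays above all 8 h arrays, although replicate 1 lay close to the 8 h values.

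SUGCT, a mitochondrial CoA transferase, was 8.64 and 7.25 on replicates 2 and 1 at 24 h, against 7.11, 7.12 and 6.89 at 8 h (1.53, SE 0.17). GPER1, a G protein-coupled estrogen receptor, was 6.58 and 5.21, against 5.21, 4.85 and 5.51 (1.55, SE 0.17), and GPR162, an orphan receptor, was 8.13 and 6.76, against 6.69, 6.82 and 5.47 (1.37, SE 0.19). In ELAPOR1, CABYR, SUGCT, GPER1 and GPR162 the vehicle arrays were 5.57 to 7.35 and all lay below TFT 24 h replicate 2 of the same gene. Other probes did not bear out every rise: a further LRRC17 probe gave 0.30 (SE 0.23), 1 of 2 further GPER1 probes gave -0.07 and the other 1.42, and 1 of 2 further GEM probes gave -0.24 and the other 1.10.

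The 12 largest falls were higher on both TFT 8 h replicates 1 and 2 than on both vehicle arrays, and TFT 24 h replicate 2 lay below both vehicle arrays in all but PLXNA2. The genes were chosen by the difference between those TFT arrays, so this is a description. EPHB1, a receptor tyrosine kinase for ephrin-B ligands, was 6.25 on TFT 24 h replicate 2 and 8.10 on replicate 1, against 8.08, 8.08 and 7.51 at 8 h and 6.86 and 6.65 with vehicle. Only TFT 24 h replicate 2 had lost the level that all other TFT arrays held, and the log2 fold change was -1.83 (SE 0.15, adjusted p = 0.00241). KCNH1, a voltage-gated potassium channel, was 4.56 and 6.37 on replicates 2 and 1 at 24 h, against 6.41, 6.36 and 7.33 at 8 h and 5.03 and 4.79 with vehicle. It was not well above background on TFT 24 h replicate 2 and so at least 2.77-fold lower there than on TFT 8 h replicates 1 and 2 (adjusted p = 0.0108). HHAT, which attaches palmitate to Hedgehog proteins, was at least 2.52-fold lower (adjusted p = 0.0323), and ASIC2, an acid-sensing ion channel, at least 2.26-fold lower (adjusted p = 0.0185).

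PLXNA2, a semaphorin receptor, was 6.52 on TFT 24 h replicate 2 and 7.89 on replicate 1, against 7.79, 7.90 and 6.41 at 8 h and 6.15 and 6.14 with vehicle (-1.33, SE 0.17, adjusted p = 0.0108). SLC35B4, a nucleotide sugar transporter, was 6.21 and 7.42 at 24 h, against 7.40, 7.43 and 6.03 at 8 h and 7.08 and 6.95 with vehicle (-1.20, SE 0.16, adjusted p = 0.0121). EDN1, the peptide endothelin-1, was 6.89 and 7.79 at 24 h, against 8.05, 7.88 and 10.17 at 8 h and 7.17 and 7.25 with vehicle (-1.07, SE 0.17, adjusted p = 0.0195). TFT 8 h replicate 3 lay with TFT 24 h replicate 2 for PLXNA2 and SLC35B4 and farthest from it for EDN1, the only one of the 3 whose labelled arrays did not overlap.

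NUFIP1, a factor of small nucleolar RNP assembly, fell by 1.32 (SE 0.22) and WWC1, the Hippo pathway scaffold KIBRA, by 1.11 (SE 0.16). BEND3, a chromatin-bound repressor, fell by 1.33 (SE 0.17), CYP4V2, a fatty acid hydroxylase, by 1.12 (SE 0.20), and SGCB, a sarcoglycan of the membrane complex of muscle, by 1.11 (SE 0.22). Further probes gave smaller differences that did not pass: -0.22 and -0.12 for BEND3, -0.17 for PLXNA2, -0.17 for SGCB and -0.44 for NUFIP1. Over all named genes that passed, 18 further probes were measured, of which 15 had the same sign and 3 passed.

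Chaperones and matrix genes gave a few calls in both directions. Among 32 tested heat shock and ER chaperones, 0 rose and 2 fell (median -0.17), where 1.15% of all genes rose and 0.412% fell. HSPA5, the ER chaperone BiP, was 9.62 on TFT 24 h replicate 2 and 10.49 on replicate 1, against 10.54, 10.50 and 8.98 at 8 h (-0.90, SE 0.13, adjusted p = 0.0172; 0.05 as labelled). HSPA1B, an inducible heat shock protein whose signal cannot be told apart from that of its near-identical copy HSPA1A, was 10.45 and 11.18, against 11.58, 11.37 and 9.22 (-1.03, SE 0.15, adjusted p = 0.0175; 0.09 as labelled). Both were lowest on TFT 8 h replicate 3, so that their sign as labelled was the opposite.

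In the matrix list 16 of 33 tested genes were above 0 and the median was 0, against 0.01 over all genes. ACTA2, smooth muscle actin, was 9.64 and 8.31 on replicates 2 and 1 at 24 h, against 8.39, 8.21 and 8.56 at 8 h (1.34, SE 0.15, adjusted p = 0.00776). MMP3, a matrix protease not well above background at 8 h, was at least 1.60-fold higher (adjusted p = 0.0392), and TIMP3, an inhibitor of such proteases, was 10.50 and 11.56, against 11.61, 11.51 and 10.01 (-1.06, SE 0.14, adjusted p = 0.0123). ANKRD1, a YAP target of the MITF-low state, fell by 0.94 (SE 0.15), and CASP6, an executioner caspase, rose by 0.81 (SE 0.16), with further CASP6 probes at -0.03 and 0.34. None of the 19 melanocyte lineage genes, 45 ribosome biogenesis genes (median -0.21), 65 ribosomal protein genes, 66 oxidative phosphorylation genes, 22 cholesterol synthesis genes or 29 glycolysis and hypoxia genes passed. GAPDH was at 0.09 (SE 0.15) and ACTB at -0.31 (SE 0.14, adjusted p = 0.281).

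Some markers of other cell types were higher on the same array. Of 10 fibroblast markers 6 were tested, all 6 were above 0 and their median was 0.52. PDGFRB, a growth factor receptor, rose by 1.22 (SE 0.20). LUM was at 0.79, PDGFRA at 0.74, COL1A2 at 0.30, FAP at 0.19 and DCN at 0.07, which did not pass. COL1A1, COL3A1, THY1 and POSTN were undetected on all 5 TFT arrays. PDGFRB was 6.58 on TFT 24 h replicate 2 and 6.0 on replicate 1, against 5.50, 5.20 and 4.48 at 8 h. The summed intensity of the fibroblast markers was 453 and 344 on those 24 h arrays, against 293 to 336 at 8 h and 322 to 327 with vehicle. The leukocyte markers summed to 1179 and 830, against 695 to 856 at 8 h and 875 to 890 with vehicle. Of 4 leukocyte markers tested, CD68 rose by 0.71 (SE 0.13), with a further CD68 probe at 0.47 that did not pass, while HLA-DRA was at 0.42, MS4A1 at -0.08 and CD14 at -0.09, and PTPRC, CD3E, CD3D and LYZ were undetected. The endothelial markers summed to 288 and 206, against 209 to 229 at 8 h and 226 to 229 with vehicle, with TIE1 rising by 1.03 (SE 0.17), ESAM at 0.56 and TEK at 0.15, which did not pass, and VWF, CDH5, KDR and CLDN5 undetected. The keratinocyte markers summed to 182 and 175, against 177 to 199 at 8 h, with 5 of 7 probed undetected. Thus TFT 24 h replicate 2 had the highest fibroblast, leukocyte and endothelial sums of these arrays. In each of these lists some markers passed the filter and others were undetected. The part of these markers in the called changes was not tested.

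The change under TFT was also set against the change between the same times under LTM, as a difference of differences on the 9 arrays. It passed for 4558 genes (37.6%), with 2428 higher under TFT (20%) and 2130 lower (17.6%). With median centring in place of quantile normalization the share higher was 40.1%, against 53.3%. All 12 arrays as labelled gave 3439 genes (28.3%). Of the 190 genes called in the TFT comparison, 136 were also called in this difference, which contains that comparison. GPR162 changed by 1.37 under TFT and by -0.79 under LTM, a difference of 2.16 (SE 0.24, adjusted p = 0.000421). DDB2 changed by 1.47 under TFT and 1.33 under LTM, and their difference of 0.14 (SE 0.24, adjusted p = 0.688) did not pass. ATF3 changed by 1.68 and 2.03, with a difference of -0.35 (SE 0.21, adjusted p = 0.223). Thus some leading genes of the TFT comparison differed between the drugs in their change between the times, and for others a difference was not detected. The median change of the p53 targets was 0.43 under TFT and 0.51 under LTM, and that of the ATF4 list 0.34 and 0.89. For the mitosis and G2 list it was 0.31 and 0.09, and for the immediate early genes 0.12 and -0.34. A rise of the p53 and ATF4 lists between the times was thus not particular to TFT.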

How the data were processed

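RNA of WM35 cells was hybridised to 12 BeadChip arrays of 1 colour (Illumina). Per the labels' protocols, 300 ng of total RNA was amplified and labelled with biotin. The scanner table deposited by the authors held 1 linear intensity per probe and array, which per the submitters' processing notes came from GenomeStudio (version not given); 27.3% to 29.3% of an array's intensities were below 0, so a background had been subtracted. A detection p-value stood beside each deposited intensity, per the file headers. A processed table of linear intensities for 38223 probes, also deposited by the authors, served as an alternative; its array medians were 24.0 to 25.2 on the TFT arrays, its genes were not centred, and its normalization is not given in the sources used here. After centring, each of its columns matched its own array at a correlation of at least 0.968 and any other at 0.92 or less, over the 6147 probes above 200 on all arrays.

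Signals were corrected and normalized with limma 3.58.1 in R 4.3.3 (neqc with detection p-values, offset 16, quantile, log2). Probes detected on at least 2 arrays were kept. By the probe annotation, 27004 probes had 1 gene symbol, 4 had several, and 11215 probes of the processed data were not listed and are unnamed here. Entrez identifiers tied 26970 probes to RefSeq, with 0 symbols changed. The probe of highest mean intensity stood for its gene, and 3007 genes had further passing probes. Group means were fitted with lmFit and eBayes (two-sided moderated test), with Benjamini-Hochberg adjustment over all 12131 genes and a threshold of 0.05. The 9-array fit kept the normalization and filter of the 12.

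Named genes were, for each comparison, the 12 largest rises and falls past the threshold with non-overlapping arrays, up to 4 called members of each list with the largest change, 30 fixed genes of which 28 were measured, and, for a comparison with under 10 calls, the 5 largest rises and falls by moderated t. The arrays, genes and lists were chosen with earlier results of these data known. Lists are described by counts and medians, with no test of their own. Alternatives covered the background correction, offset, normalization, filter, probe choice, variance model, replicate block, arrays in the fit, the processed table and each array left out. The computation was tried on simulated data with changed genes, in which no array went against its label. That trial therefore says nothing about the choice of arrays. Promoters came from RefSeq (GRCh38.p14).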

Additional observations from a re-analysis of the deposited data

Results flagged for a closer look

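For 17 of the genes that led the TFT comparison, the log2 change between the times under TFT differed from that under LTM (limma contrast on 9 arrays, adjusted over all genes, of which 37.6% passed). The genes had been chosen by the TFT change, which is part of this difference. The difference was positive, with TFT higher, for GPR162 (2.16), GDF15 (2.07), LRRC17 (1.62), SUGCT (1.38), IFIT1 (1.26), EDN1 (1.24), GPER1 (1.15), ELAPOR1 (0.87) and IL24 (0.77). It was negative for EPHB1 (-2.01), NUFIP1 (-1.62), HHAT (-1.53), SLC35B4 (-1.50), KCNH1 (-1.32), CYP4V2 (-1.31), ASIC2 (-0.75) and WWC1 (-0.65). EDN1 changed by -1.07 under TFT and by -2.31 under LTM. EPHB1 changed by -1.83 under TFT and 0.18 under LTM, where LTM 24 h arrays were 7.59 and 7.71, against 7.41 and 7.53 on LTM 8 h replicates 2 and 3.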

How the results depend on the processing

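With the arrays as labelled, the count of called genes was 0 with each array left out (0 to 0), with the replicate number as a block, and under the other alternatives, except 1 gene with intensities floored at the offset (SECTM1, named after its value was seen, log2 fold change 0.66, SE 0.06, adjusted p = 0.0356) and 190 without the 3 arrays. Among the genes named by rule that passed in the 3-array comparison, that step turned the sign of DDIT3 (1.12), FOS (1.25), IL24 (1.43), HSPA1B (-1.03) and HSPA5 (-0.90). Of the p53 targets that passed outside these, GADD45A (0.81) and BLOC1S2 (1.15) turned too. Signs also turned for named genes that passed in neither comparison, such as EGR1 (-0.33 as labelled, 0.71 with 3 arrays) and CCNE1 (0.39 and -0.52). Further genes that turned are not listed here. The 3-array count of 190 was 342 with floored intensities, 364 with a trended prior and robust variances, 344 with probes detected on every array of 1 TFT group, 495 with an offset of 50, 0 with only the TFT arrays (smallest adjusted p 0.176), and 16 to 410 with 1 array left out; the cause was not tested. It stayed within 1.5 times, at 153 to 192, with median centring, cyclic loess, no filter, every probe and the processed table. Deviations of TFT arrays of the same number correlated at r = 0.01 and -0.01 between the times, and those of crossed numbers also at 0.01 and -0.01. The 2 arrays labelled TFT 24 h deviate from their mean in mirror image, so this check cannot decide whether the numbers pair the arrays. With the replicate block the 3-array count was 44 and the count of differences from LTM 2767. That last count, 4558 genes, was 3457 to 5471 with 1 array left out. Of 48 named genes called in the 3-array comparison, 25 passed with the block, 11 and 17 without TFT 8 h replicate 1 or 2, and 0 with only the TFT arrays, and none changed sign. Low signal limits bounds for genes not well above background.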
